A study of Homo sapiens with 14 samples.

Results

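ARID1A was lost in the human gastric cancer line NUGC4 in 2 ways, by a CRISPR-Cas9 knockout and by CRISPR interference (CRISPRi), and the results below compare what each did to the transcriptome. The comparison rests on 8 of the series' 14 samples, taken by their labels: 4 libraries of unmodified parental cells (wild type), 1 library of an ARID1A knockout (knockout replicate 1), 1 library of cells carrying the CRISPRi vector alone, and 2 libraries of cells with CRISPRi against ARID1A through a guide named sgRNA1. Per the labels the knockout cells were single-cell clones, so knockout replicate 1 is 1 clone, and sgRNA1 is 1 guide. The labels name neither the CRISPRi repressor nor an age of the cultures, and all groups grew in the same RPMI-1640 medium with serum. A second library labelled knockout was left out because its ARID1A transcript stood at the control level (140.6 CPM of total counts, against 139.8 in vector and 117.5 to 136.6 in wild type). A second vector sample was not analysed here. For each gene the log2 change of the knockout from wild type (the knockout effect) was set against the log2 change of sgRNA1 from vector (the CRISPRi effect). The knockout effect minus the CRISPRi effect is called the difference, and it is positive where the knockout moved a gene further up or less far down.

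ARID1A is a subunit of the BAF (SWI/SNF) complexes, which use ATP to slide or evict nucleosomes and keep enhancers open. ARID1B is its paralogue and can fill the same place in the complex. ARID1A is often truncated by mutation in gastric cancer. A Cas9 knockout cuts the coding sequence, and a frameshifted transcript can still be made and counted. CRISPRi recruits a dead Cas9 with a repressor to the promoter and lowers the transcript itself. The transcript level therefore does not measure the protein that is left in either model.

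ARID1A itself lies on chromosome 1, 26696015 to 26782104 of GRCh38.p14. In wild type it was counted at 124, 128, 113 and 111 CPM (counts scaled to TMM-adjusted library sizes), at 35.7 CPM in the knockout, at 141 CPM in the vector library, and at 61.8 and 57.8 CPM in the sgRNA1 libraries. The wild-type mean was 119 ± 8.03 CPM (SD, n = 4), so the knockout kept 30.0% of its control and the sgRNA1 libraries 43.9% and 41.0% of theirs. No knockout or sgRNA1 library overlapped a control. The transcript fell by 1.74 in the knockout (log2, edgeR adjusted p = 1.49e-08) and by 1.24 under CRISPRi (edgeR adjusted p = 3.30e-06). The difference of -0.50 ± 0.18 (log2 ± SE) was not called (edgeR adjusted p = 0.0930), and without wild-type replicate 3 it was called, at -0.53 with an edgeR adjusted p of 0.0341. The counts show a called loss of transcript in each model and no called difference between them. Whether the loss of protein is complete in the knockout and partial under CRISPRi cannot be read from them. ARID1B stood at 80.1, 76.7, 70.4 and 76.4 CPM in wild type, 73.95 CPM in the knockout, 74.4 CPM in vector and 59.4 and 57.99 CPM under CRISPRi. Its knockout effect was -0.04 and its CRISPRi effect -0.34 (log2), and neither passed the test.

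**Figure D1:**
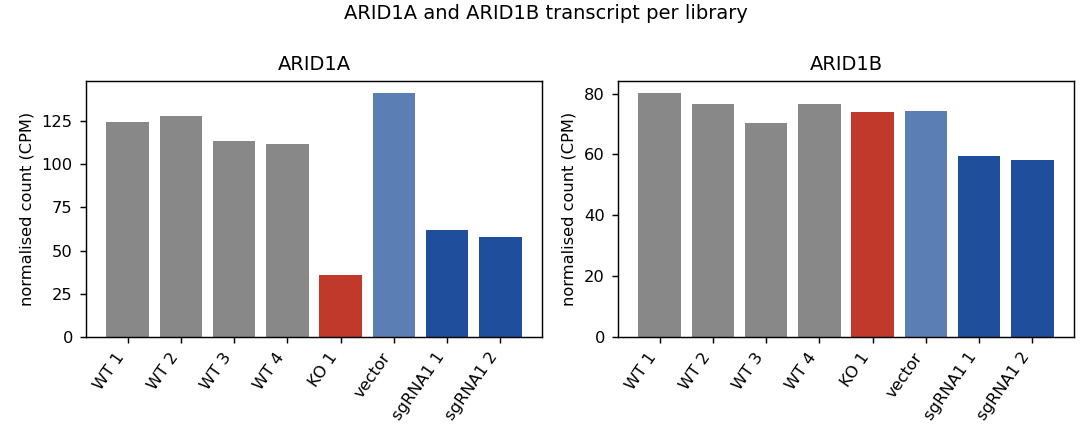
Bars give the normalised count (CPM, axes starting at 0) of ARID1A (left) and of its paralogue ARID1B (right) in each of the 8 libraries: wild type (WT), knockout replicate 1 (KO), CRISPRi vector and CRISPRi sgRNA1. ARID1A stands at 35.7 CPM in the knockout and at 61.8 and 57.8 CPM in the sgRNA1 libraries, all below every control bar.

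The 2 controls already differed widely. Vector and wild-type cells differed in 8355 of the 18913 genes tested (44.2% called by edgeR's quasi-likelihood test at a Benjamini-Hochberg adjusted p under 0.05; 4441 higher and 3914 lower in vector). Ribosomal RNA made up 6.30% to 11.7% of the counts in the wild-type and knockout libraries and 0.165% to 0.177% in the vector and sgRNA1 libraries, and mitochondrially encoded RNA 0.832% to 2.50% against 7.96% to 8.16%. Transcripts of histone genes made up 0.277% to 0.344% against 0.0155% to 0.0186%. Each effect was measured within 1 of these library kinds, and the part that the kind of library plays in the difference was not tested. The vector and sgRNA1 libraries also differ in the transcripts of ZNF10 and ZIM3, genes whose KRAB domains serve as repressors in CRISPRi constructs; the constructs themselves were not examined. ZNF10 was counted in vector at 23.6 CPM and in the sgRNA1 libraries at 0.0658 and 0 CPM, and ZIM3 at 0 CPM in vector against 28.03 and 30.5 CPM. The guide and these transcripts change together between vector and sgRNA1. Their parts in the CRISPRi effect, and so in every difference and response class below, cannot be told apart. All 9 epithelial markers were detected, with a summed level of 5107 to 5692 CPM in wild type, 9822 in the knockout, 10860.0 in vector and 13370.0 to 13960.0 in sgRNA1. A called positive difference was found for 5 of them (of all genes 5%). The fibroblast markers summed to at most 27.7 CPM and the endothelial markers to at most 1.88 CPM in any library, with COL1A2, PDGFRA, CDH5 and KDR at 0 in all, and the neuronal markers to 104.0 and 120.7 CPM in sgRNA1 against at most 37.7 CPM elsewhere. The leukocyte markers summed to 1358 to 2868 CPM with CD3D, CD3E, MS4A1 and NKG7 at 0 in all; LYZ, which gastric epithelium also makes, stood at 1788 to 1938 CPM in wild type. Genes are said below to have like controls where vector and wild type differed by less than 0.5 (log2), which held for 8715 genes (46.1%).

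How many genes answered the 2 losses differently, and in which way, was counted first. In all 1706 genes had a called difference (9.02% of the genes tested), 945 of them with a positive difference (5%) and 761 with a negative difference (4.02%). The knockout effect was called in 7228 genes (38.2%; 3682 or 19.5% up and 3546 or 18.7% down) and the CRISPRi effect in 1652 genes (8.73%; 874 or 4.62% up and 778 or 4.11% down). The median standard errors were 0.214 for the knockout effect and 0.221 for the CRISPRi effect (log2). All groups share 1 estimate of the spread per gene, so these values do not measure the spread within each model. The chi-square per degree of freedom of the counts was 6.62 to 20.8 between wild-type libraries and 3.75 between the sgRNA1 libraries. The part of this unequal spread in the numbers of calls was not tested. An absolute change of at least 1 was reached by 27.4% of the genes in the knockout and 14.1% under CRISPRi. The count of 1706 fell to 815 without sgRNA1 replicate 1 and to 987 without sgRNA1 replicate 2, rose to 2566 without wild-type replicate 3, and was 3 with both libraries labelled knockout in the group (1838 at an unadjusted p under 0.05). That second library stood with vector and not with knockout replicate 1 in ribosomal RNA (0.162% of counts) and mitochondrial RNA (8.23%) as well as in ARID1A.

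The effects mostly pointed the same way. Of the genes called under CRISPRi, 1308 were called in the knockout in the same direction, which is 79.2% of the CRISPRi calls and 18.1% of the knockout calls, and 48 were called in opposite directions. These 2 comparisons share no library. Across the 11617 genes with a mean of at least 5 CPM the 2 effects had a Pearson r of 0.638 and a Spearman rho of 0.596, as a description over genes, which are not independent. Genes that rose under CRISPRi had a median CRISPRi effect of 0.82 and a median knockout effect of 1.09 (log2), and genes that fell had -0.90 and -1.02. Among the called differences, 1205 genes changed in the knockout only (643 up, 562 down), 342 changed in both models and further in the knockout (213 up, 129 down), 83 changed under CRISPRi only (29 up, 54 down), 48 moved in opposite directions, 3 changed further under CRISPRi and 25 were called in neither model alone. A further 963 genes were called in both models in the same direction with no called difference, and 4667 were called in the knockout with no called difference, so that most knockout calls missing under CRISPRi were not shown to differ. Like controls were found for 526 of the 1205 genes changed in the knockout only (43.7%) and 730 of the 1706 (42.8%), against 46.1% of all genes. Vector against wild type, which shares its libraries with the difference, was itself called in 730 of those 1205 genes. It was called in 1046 of the 1706, against 8355 of all 18913. Its median was 0.56 (log2) for genes that rose in the knockout only and -0.40 for those that fell, against -0.02 over all genes.

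**Figure D2:**
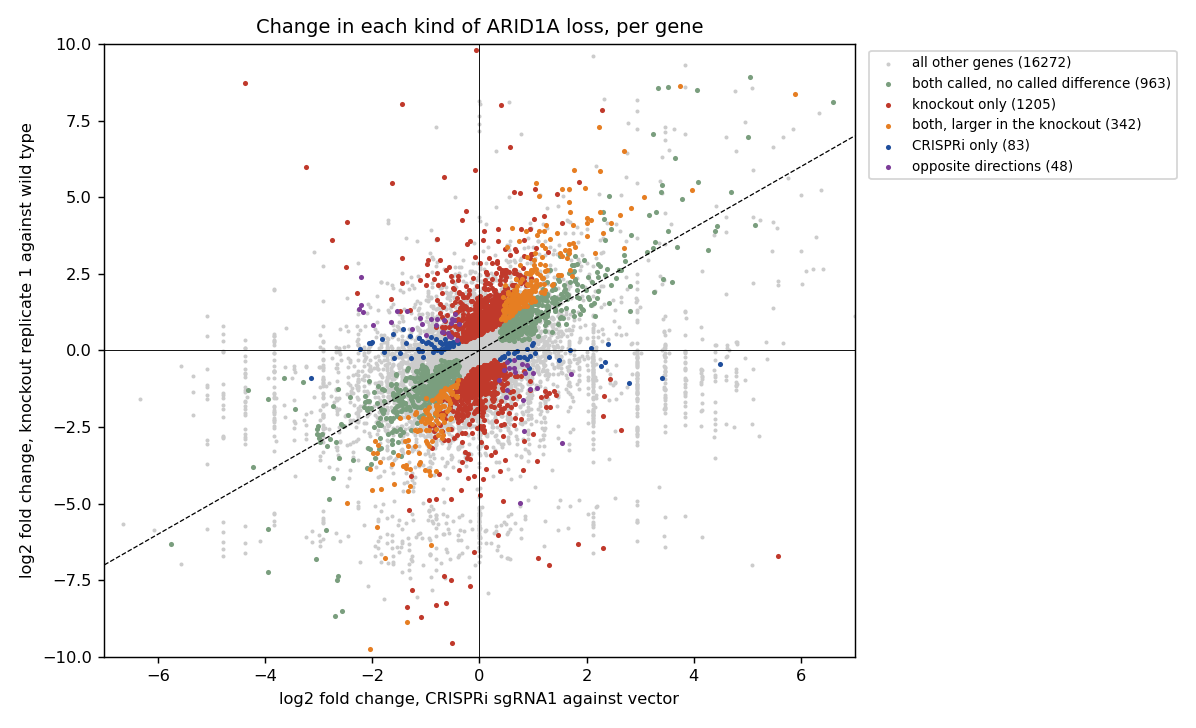
Each point is 1 of the 18913 genes tested, with its CRISPRi effect on the x axis and its knockout effect on the y axis (both log2 fold changes), coloured by response class with the number of genes in brackets; the dashed line marks equal effects. The 1205 genes changed in the knockout only lie along the vertical axis and outnumber the 83 changed under CRISPRi only along the horizontal axis; 13 genes lie outside the plotted range.

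A difference is a difference of changes, and it does not rank the levels. Of the 945 genes with a positive difference, 734 (77.7%) stood higher in the knockout than in both sgRNA1 libraries, and 173 (18.3%) stood lower than in both. FN1, which encodes the matrix protein fibronectin, belongs to the latter. It stood at 1.51, 1.60, 1.05 and 2.07 CPM in wild type and 520.3 CPM in the knockout, and at 20.9 CPM in vector and 1253 and 1215 CPM in sgRNA1. Its positive difference of 2.49 ± 0.21 (log2 ± SE, edgeR adjusted p = 1.01e-06) goes with a vector level above that of wild type, and the sgRNA1 libraries held more FN1 than the knockout. Genes with like controls are therefore described first in each class.

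Genes changed in the knockout only went in both directions. AQP1, the water channel aquaporin 1, stood at 15.7, 20.02, 22.5 and 23.4 CPM in wild type, 226 CPM in the knockout, 16.1 CPM in vector and 13.8 and 13.7 CPM in sgRNA1. The knockout library lay far above the other 7, and the difference was 3.70 ± 0.24 (log2 ± SE, edgeR adjusted p = 3.90e-08). TRABD2B, a membrane metalloprotease that cleaves Wnt proteins, rose by 3.98 (log2) in the knockout from 0.590 to 1.77 CPM to 18.7 CPM, with a CRISPRi effect of 0.77 that was not called. ZNF827, a zinc finger protein, rose by 2.34 from 1.08 to 2.03 CPM to 8.79 CPM, and OTUD1, a deubiquitinase, by 2.19 from 0.632 to 1.86 CPM to 5.57 CPM. In the other direction SPINK4, a secreted goblet cell protein, stood at 4.82, 4.39, 6.85 and 6.39 CPM in wild type and 0.707 CPM in the knockout, against 3.97 CPM in vector and 7.11 and 7.10 CPM in sgRNA1. It fell by 2.96 in the knockout and its CRISPRi effect was 0.84, for a difference of -3.80 ± 0.53 (log2 ± SE, edgeR adjusted p = 1.79e-04). NTRK2, the receptor of the neurotrophin BDNF, fell by 2.67 from 3.24 to 4.73 CPM to 0.628 CPM, while vector and sgRNA1 held 5.23 CPM and 5.79 and 5.26 CPM. The median CRISPRi effect over the 643 genes that rose in the knockout only was 0.07, and over the 562 that fell -0.04 (log2), values that the choice of the class fixes.

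The genes that changed in both models and further in the knockout held genes of several kinds. ANXA13, an annexin of intestinal epithelium, stood at 4.52, 4.56, 3.58 and 4.43 CPM in wild type and 190.5 CPM in the knockout, and at 3.53 CPM in vector and 6.78 and 7.89 CPM in sgRNA1. No library of either model overlapped its control, and the difference was 4.41 ± 0.30 (log2 ± SE, edgeR adjusted p = 5.42e-08). IGFBP7, a secreted protein that binds insulin-like growth factors, rose by 5.85 in the knockout and by 2.26 under CRISPRi (log2), to 152 CPM and to 13.03 and 14.1 CPM from a vector level of 2.84 CPM. IGSF1, a membrane glycoprotein of the immunoglobulin superfamily, rose by 5.28 and 1.67. A pair of cytoskeletal genes did the same: MYLK, the myosin light chain kinase, rose by 3.89 in the knockout and 0.86 under CRISPRi, and FLNC, the actin crosslinker filamin C, by 4.10 and 1.24.

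Graded falls were measured in MYBPC1 and MLPH. MYBPC1, a myosin binding protein of slow muscle, stood at 351, 325, 307 and 308 CPM in wild type and had no count in the knockout library, so that it was at least 1379.4-fold lower there (against a floor of 3 counts in that library). It stood at 273 CPM in vector and 89.9 and 94.2 CPM in sgRNA1, a fall of 1.57 (log2). The knockout library thus lacked the transcript, and the sgRNA1 libraries kept part of it. MLPH, melanophilin, which links vesicles to myosin, stood at 154, 161, 168 and 151 CPM in wild type, 6.91 CPM in the knockout, 121 CPM in vector and 34.5 and 33.4 CPM in sgRNA1, for a difference of -2.69 ± 0.20 (log2 ± SE, edgeR adjusted p = 2.05e-07). GGT6, a gamma-glutamyltransferase family member, had 1 count in the knockout and was 121.18-fold lower than in wild type (95% exact counting interval 21.6 to 4797.5), and it fell by 1.76 under CRISPRi. FREM2, an extracellular matrix protein, fell by 4.57 in the knockout and 1.34 under CRISPRi, and EVA1C, a membrane protein with lectin domains, by 3.95 and 0.94.

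Few genes answered CRISPRi alone, and their changes were smaller. HTR1D, a serotonin receptor, stood at 61.6, 65.3, 69.2 and 57.1 CPM in wild type, 52.05 CPM in the knockout, 57.6 CPM in vector and 103 and 109 CPM in sgRNA1. The sgRNA1 libraries stood above the other 6, of which the knockout was the lowest, and the difference was -1.16 ± 0.19 (log2 ± SE, edgeR adjusted p = 7.04e-04). SH3D21 rose by 0.75 under CRISPRi, from 90.3 CPM to 155 and 149 CPM, with 90.7 CPM in the knockout inside the wild-type range of 88.1 to 127 CPM. KRT80, an epithelial keratin, fell by 1.59 under CRISPRi, from 23.6 CPM to 8.42 and 7.28 CPM, and its knockout effect was -0.23 (not called), for a difference of 1.36 ± 0.25 (log2 ± SE, edgeR adjusted p = 0.00192). DEPTOR, an inhibitor of the mTOR kinase, fell by 0.96 from 11.7 CPM to 6.71 and 5.32 CPM, and its call of a difference was lost without sgRNA1 replicate 2. Over the class, the 29 genes that rose had a median CRISPRi effect of 0.95 and the 54 that fell -0.83 (log2). The class shrank to 25 genes without sgRNA1 replicate 1 and 30 without sgRNA1 replicate 2, and held 52 without wild-type replicate 2 and 144 without wild-type replicate 3.

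A small set moved in opposite directions. SLC10A2, the ileal bile acid transporter, stood at 2.19, 2.37, 2.84 and 2.46 CPM in wild type and 13.03 CPM in the knockout, and at 1.95 CPM in vector and 0.526 and 0.306 CPM in sgRNA1. The groups of neither model overlapped, and the difference was 4.63 ± 0.54 (log2 ± SE, edgeR adjusted p = 2.22e-05). SERPINA4, the serine protease inhibitor kallistatin, likewise rose by 1.48 in the knockout and fell by 2.21 under CRISPRi, and HOXB6, a homeobox transcription factor, rose by 0.86 and fell by 1.07. In the reverse sense PRODH, the first enzyme of proline breakdown, stood at 17.7, 17.1, 18.5 and 15.9 CPM in wild type and 5.65 CPM in the knockout, against 21.4 CPM in vector and 38.8 and 36.5 CPM in sgRNA1. Its difference was -2.42 ± 0.25 (log2 ± SE, edgeR adjusted p = 6.65e-06). CAPN8, a calpain of the stomach mucosa, fell by 0.73 and rose by 0.84, and COLGALT2, a collagen galactosyltransferase, fell by 0.96 and rose by 0.36. Of the 48 genes, 15 had like controls (31.2%). The count was 22 without sgRNA1 replicate 1, 20 without sgRNA1 replicate 2 and 75 without wild-type replicate 3.

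SYT13, a synaptotagmin, was the named gene that rose in both models and further under CRISPRi. It stood at 293, 287, 298 and 289.5 CPM in wild type, 449 CPM in the knockout, 346 CPM in vector and 883 and 881 CPM in sgRNA1, with a difference of -0.73 ± 0.15 (log2 ± SE, edgeR adjusted p = 0.00541). Both models moved it up, and the sgRNA1 libraries lay highest.

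**Figure D3:**
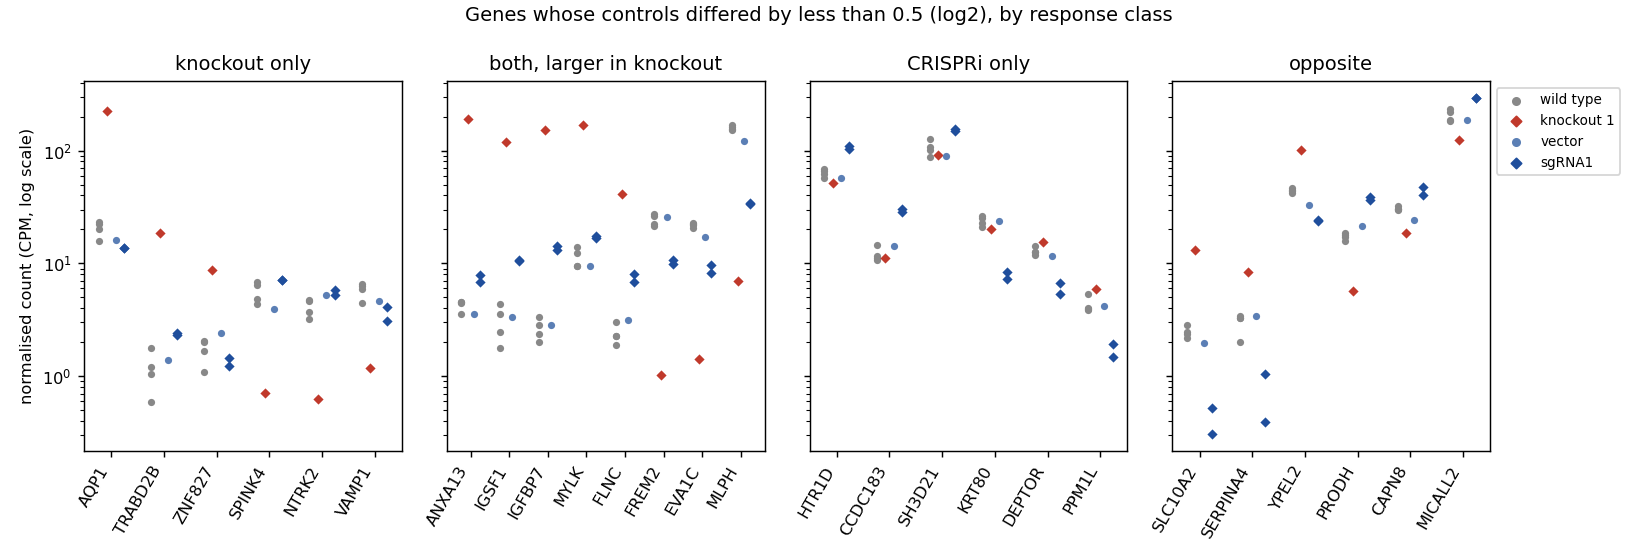
Each point is the normalised count (CPM, log axis) of 1 library for a named gene with like controls; grey circles are wild type, red diamonds knockout replicate 1, light blue circles vector and dark blue diamonds sgRNA1. AQP1 and ANXA13 stand above 100 CPM only in the knockout, HTR1D is highest in sgRNA1, and PRODH is lowest in the knockout (5.65 CPM) and highest in sgRNA1 (38.8 and 36.5 CPM).

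Genes called in both models without a called difference were also described, since they answered either loss. PHLDB2, a protein that ties microtubules to the cell cortex, stood at 0.603, 0.338, 0.421 and 0.393 CPM in wild type, 57.2 CPM in the knockout, 0.315 CPM in vector and 11.5 and 9.36 CPM in sgRNA1. It rose by 6.97 and 5.01 (log2), and the difference of 1.97 ± 0.78 had an edgeR adjusted p of 0.128. TM4SF20, a membrane protein of the L6 family, rose by 6.28 and 3.64. CDX2, the intestinal homeobox factor, fell by 2.61 in the knockout and by 1.28 under CRISPRi, from 3.99 to 6.53 CPM in wild type to 0.785 CPM and from 5.17 CPM in vector to 1.58 and 2.63 CPM. PPARGC1A, the coactivator of mitochondrial genes, fell by 3.44 and 1.47. For these low genes the standard errors of the difference were 0.624 to 0.835 (log2), so that a difference of 1 lies within 2 standard errors.

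Gene lists for pathways were then read in the same fit, with all genes as the background. Of the 8715 genes with like controls, 730 had a called difference in either direction, which is the background for list members with like controls. Over all 18913 genes the median was -0.03 for the difference, -0.07 for the knockout effect, 0.00 for the CRISPRi effect and -0.02 for vector against wild type (log2). Genes of the type I interferon response, which are switched on by interferon and by sensed nucleic acids, were read first. Of 56 tested, 20 had a called positive difference and 0 a negative one (of all genes 5% and 4.02%), with a median difference of 0.88. In the knockout 52 rose and 1 fell (median 1.54), under CRISPRi 25 rose and 1 fell (median 0.64), and in vector against wild type 25 were higher and 3 lower (median 0.38). Among the 28 members with like controls, 6 had a positive difference, and the knockout raised 24 of them. The 20 calls became 14 without sgRNA1 replicate 1 and 13 without sgRNA1 replicate 2.

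ISG20 (chromosome 15, 88635632 to 88656483, GRCh38.p14), an exonuclease that degrades viral RNA, stood at 13.7, 13.9, 13.9 and 14.8 CPM in wild type, 146 CPM in the knockout, 25.8 CPM in vector and 36.3 and 37.1 CPM in sgRNA1. The knockout library was far above the rest, the sgRNA1 libraries lay above vector, and the difference was 2.86 ± 0.18 (log2 ± SE, edgeR adjusted p = 3.30e-08). IFI6, an antiviral protein of the endoplasmic reticulum, stood at 8.14, 11.8, 12.01 and 12 CPM, 174 CPM, 57.7 CPM and 92.98 and 82.6 CPM in the same order, with a vector level above every wild-type library. OASL, a 2'-5' oligoadenylate synthetase relative, rose by 4.86 in the knockout and 1.66 under CRISPRi. With like controls, ISG15, the ubiquitin-like modifier, rose by 1.92 from 19.4 to 30.6 CPM to 90.1 CPM and by 0.92 from 27.04 CPM to 51 and 51.1 CPM, and its call of a difference was lost without either sgRNA1 library. PLSCR1, a phospholipid scramblase, rose by 1.29 in the knockout and had a CRISPRi effect of 0.38 that was not called. SAMD9, an antiviral and growth-restraining factor, went against the list under CRISPRi. It stood at 20.7, 19.7, 15.4 and 22.6 CPM in wild type and 40.04 CPM in the knockout, and at 29 CPM in vector and 17.9 and 13.3 CPM in sgRNA1, a rise of 1.03 and a fall of 0.90. IFIT1 was called in both models with no called difference (1.51 ± 0.91, log2 ± SE, edgeR adjusted p = 0.346).

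Promoters of interferon-induced genes often carry the interferon-stimulated response element, the site of the ISGF3 factor. The letters GAAA, any 2 bases and GAAA again, searched on both strands over 250 bases before to 50 bases after the start, were found in 29 of the 46 promoters that the RefSeq table holds (63.0%), in 12 of the 17 promoters of members with a called difference (70.6%), and in 3.65% of all 27305 promoters. Stretches just upstream of the start that the promoter table uses are printed for 6 members to show that genes with unlike responses carry the same letters, which are in capitals together with their reverse complement, and overlapping matches run on.
ISG20: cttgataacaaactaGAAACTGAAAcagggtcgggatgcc
IFI6: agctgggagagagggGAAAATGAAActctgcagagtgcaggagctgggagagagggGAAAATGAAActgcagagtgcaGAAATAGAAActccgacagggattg
SAMD9: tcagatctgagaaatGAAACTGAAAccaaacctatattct
PLSCR1: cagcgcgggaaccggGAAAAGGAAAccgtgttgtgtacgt
IFI27: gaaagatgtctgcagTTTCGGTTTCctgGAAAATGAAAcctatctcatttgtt
ISG15: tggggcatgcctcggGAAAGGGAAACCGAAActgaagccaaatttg
They are from RefSeq (GRCh38.p14), 5′ to 3′ on the strand of the gene: ISG20 at chr15:88638932-88638971 (plus strand, before a start inside the gene span given above), IFI6 at chr1:27672261-27672363 (minus), SAMD9 at chr7:93118091-93118130 (minus), PLSCR1 at chr3:146544662-146544701 (minus), IFI27 at chr14:94110613-94110665 (plus) and ISG15 at chr1:1013369-1013414 (plus). IFI6 has 3 matches, IFI27 and ISG15 2 each and the others 1. The letters alone did not separate responses: ISG20 and SAMD9 each hold 1 match, and SAMD9 fell under CRISPRi while ISG20 rose by 0.51. A match is a description of the letters and not of binding.

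Genes of MHC class I antigen presentation had 10 positive and 0 negative differences among 25 tested (of all genes 5% and 4.02%). The medians were 1.05 for the knockout effect, 0.45 for the CRISPRi effect and 0.66 for vector against wild type. HLA-B, a class I heavy chain, stood at 103, 116, 113 and 95.7 CPM in wild type, 373 CPM in the knockout, 184 CPM in vector and 296 and 302 CPM in sgRNA1. Both models lay above their controls. It rose by 1.80 and 0.70, and the difference was 1.10 ± 0.17 (log2 ± SE, edgeR adjusted p = 3.58e-04). HLA-E, another class I heavy chain, rose by 1.28 in the knockout with 0.23 under CRISPRi, not called. Of the 13 members on chromosome 6, 8 had a called difference (median 1.07), and of the 12 elsewhere 2 had (median 0.30). The count of 10 was 6 without sgRNA1 replicate 1. Among the 10 members with like controls 2 had a positive difference, and among the 15 others 8 had.

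The knockout library was shifted over chromosome 6 as a whole. Among the 601 genes of that chromosome with at least 5 CPM in wild type, the median knockout effect was 0.26 (log2), 40.3% rose and 12.3% fell, whereas over the 11559 such genes of all chromosomes the median was 0.02 and 24.2% rose. The CRISPRi effect had a median of 0.02 on chromosome 6, the same as over all genes, and vector against wild type 0.08. In 20 Mb windows with at least 20 genes, the median knockout effect lay beyond 0.3 in either direction in 9 of 149 windows, the CRISPRi effect in 0 and vector against wild type in 12. The window from 80 to 100 Mb of chromosome 15, which holds ISG20, had a median knockout effect of 0.53 over 66 genes, against 0.05 for CRISPRi and 0.12 for vector against wild type. Chromosome 6 held 12.8% of the genes that rose in the knockout only and 5.17% of all genes tested. Copy number was not measured in the files used here, and the part of such shifts in these results was not tested.

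**Figure D4:**
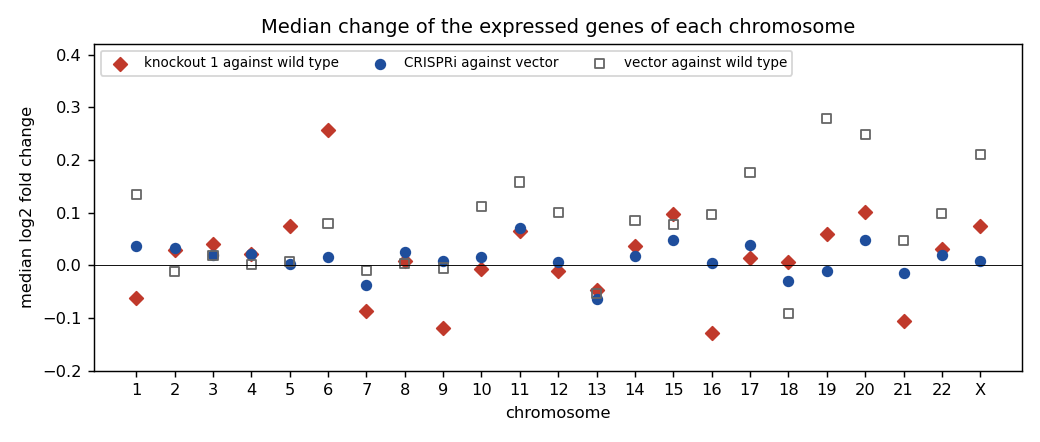
Points give the median log2 fold change of the genes with at least 5 CPM in wild type on each chromosome, for the knockout effect (red), the CRISPRi effect (blue) and vector against wild type (open squares). Chromosome 6 has the highest median knockout effect, 0.26, while its CRISPRi effect is 0.02.

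Genes of the endoplasmic reticulum stress response, chaperones and their regulators, mostly rose in the knockout. Of 22 tested, 21 rose there (median 1.07) and 11 rose under CRISPRi (median 0.50), and none fell in either. A called positive difference was found for 11 and a negative one for 0 (of all genes 5% and 4.02%). DNAJB9, a co-chaperone with like controls, stood at 17.7, 20.7, 14.01 and 18 CPM in wild type, 76.7 CPM in the knockout, 20.1 CPM in vector and 33.5 and 31.99 CPM in sgRNA1. The knockout library was the highest, and the difference was 1.41 ± 0.23 (log2 ± SE, edgeR adjusted p = 6.94e-04). HSPA5, the main chaperone BiP, rose by 1.76 and 0.82, CREB3L2, a membrane-bound transcription factor, by 1.85 and 0.60, and HYOU1, another chaperone, by 1.46 and 0.63. The 11 became 5 without either sgRNA1 library and 7 without wild-type replicate 2.

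Of 28 genes of cholesterol and fatty acid synthesis, 12 had a positive difference and 0 a negative one (of all genes 5% and 4.02%). In the knockout 15 rose and 3 fell (median 0.38), whereas under CRISPRi 1 rose and 4 fell (median -0.19) and the others were not called. SQLE, squalene epoxidase, stood at 124, 123, 105 and 119 CPM in wild type, 200.03 CPM in the knockout, 184 CPM in vector and 136 and 144 CPM in sgRNA1. The knockout library lay above wild type and the sgRNA1 libraries below vector, and the difference was 1.16 ± 0.16 (log2 ± SE, edgeR adjusted p = 2.01e-04). HMGCS1, which makes the precursor of mevalonate, rose by 0.74 in the knockout with -0.36 under CRISPRi, and MSMO1, a sterol oxidase with like controls, rose by 0.88 with -0.07; neither CRISPRi effect was called. The 12 became 7 without sgRNA1 replicate 1.

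The called differences of mitosis genes were negative. Of 39 tested, 11 had a negative difference and 0 a positive one (of all genes 4.02% and 5%). In the knockout 16 were lower and 1 higher (median -0.33), and under CRISPRi 0 lower and 1 higher (median 0.20). In vector 23 of them were already above wild type (median 0.47). PLK1, a mitotic kinase, stood at 69.2, 68.2, 68.98 and 65 CPM in wild type, 45.4 CPM in the knockout, 123 CPM in vector and 142 and 156 CPM in sgRNA1. The knockout library was the lowest of the 8. NUF2, a kinetochore protein with like controls, fell by 0.95 in the knockout and had a CRISPRi effect of 0.28, for a difference of -1.23 ± 0.25 (log2 ± SE, edgeR adjusted p = 0.00434). Of the 21 mitosis genes with like controls, 6 had a negative difference. DNA replication genes had 5 negative differences among 39 (of all genes 4.02%), with 18 lower and 3 higher in the knockout and 0 lower and 2 higher under CRISPRi. In vector 28 of them stood above wild type (median 0.58), and 2 of the 15 with like controls had a negative difference. DNA repair genes had 2 negative differences among 32, a share near the 4.02% of all genes, with 14 lower in the knockout and 0 under CRISPRi. The mitosis count was 3 and 6 without sgRNA1 replicates 1 and 2, 7 without wild-type replicate 2 and 25 without wild-type replicate 3, and the replication count 0, 2, 3 and 10 in the same order.

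A list of intestinal genes, which gastric cancers can express, had 7 negative differences and 1 positive one among 15 tested (of all genes 4.02% and 5%). The list does not hold every intestinal gene: ANXA13 and SLC10A2, named above for intestinal epithelium and ileum, had positive differences. The medians were -0.63 for the knockout effect, 0.23 for the CRISPRi effect and -0.74 for the difference, and 6 of the 9 members with like controls had a negative difference. LGR5, a Wnt-dependent stem cell receptor, stood at 65.6, 66.6, 50.6 and 64.6 CPM in wild type, 5.81 CPM in the knockout, 48.03 CPM in vector and 14.5 and 19.1 CPM in sgRNA1. It fell in both models and further in the knockout, with a difference of -1.90 ± 0.30 (log2 ± SE, edgeR adjusted p = 4.23e-04). ANPEP, a brush border peptidase, fell by 0.92 in the knockout with -0.03 under CRISPRi, and HNF4G, a nuclear receptor, rose by 1.26 with 0.23. The 7 became 4 without sgRNA1 replicate 2. Of 16 gastric genes, 2 had a positive and 3 a negative difference (of all genes 5% and 4.02%). AGR2, a disulfide isomerase of mucus-secreting cells, stood at 117, 101, 104 and 100.3 CPM in wild type, 15.5 CPM in the knockout, 148 CPM in vector and 85.2 and 88.3 CPM in sgRNA1. It fell in both models, with a difference of -1.998 ± 0.19 (log2 ± SE, edgeR adjusted p = 3.63e-06). CLDN18, a tight junction claudin of the stomach, rose by 3.34 and 2.69, to 1250.4 CPM and to 1311 and 1295 CPM, and its call of a difference was lost without either sgRNA1 library.

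**Figure D5:**
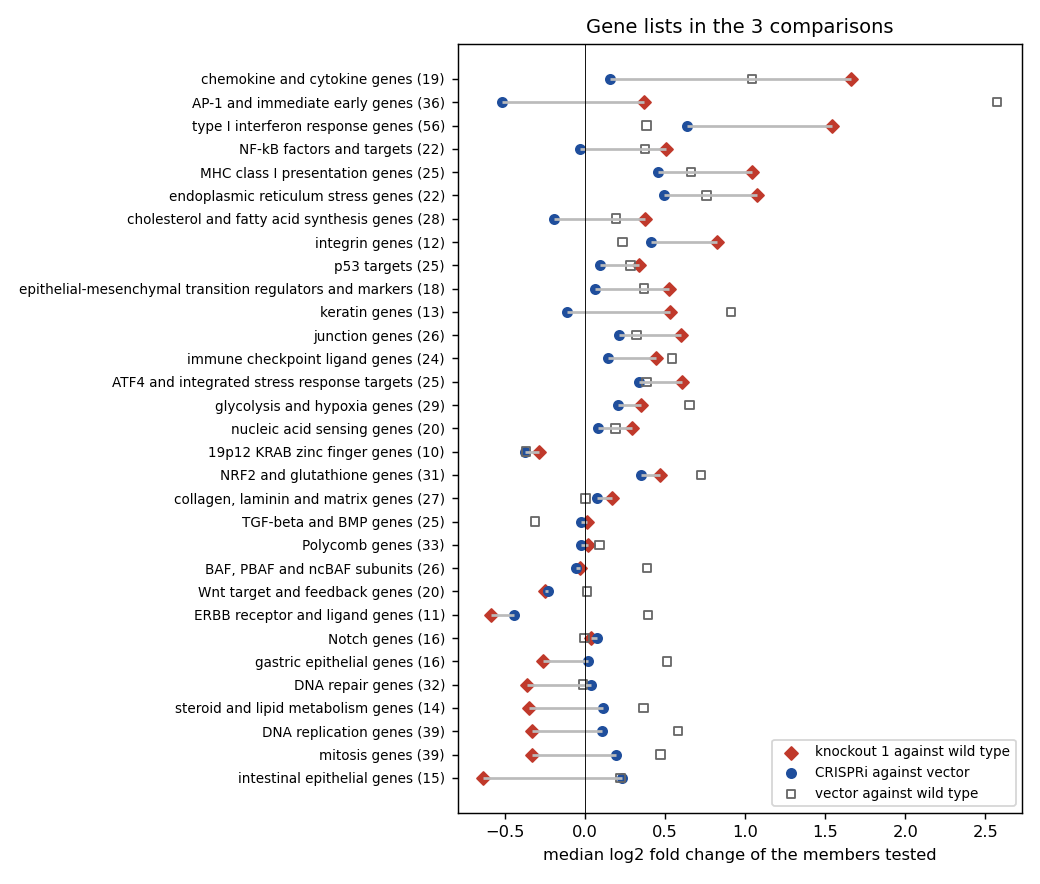
For each gene list with at least 10 members tested (number in brackets), the median log2 fold change of its members is given for the knockout effect (red diamonds), the CRISPRi effect (blue circles) and vector against wild type (open squares). The interferon list reads 1.54, 0.64 and 0.38, and the immediate early list 0.37, -0.52 and 2.57, so that its open square lies furthest to the right.

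Immediate early genes had the largest median gap between the controls of the lists with at least 10 members tested. Of 36 genes of the AP-1 and immediate early list, which respond within minutes to stress and growth signals, 19 had a positive difference and 0 a negative one (of all genes 5% and 4.02%). Vector was above wild type in 35 of the 36 (median 2.57), and no member had like controls. In the knockout 18 rose and 9 fell (median 0.37), and under CRISPRi 1 rose and 20 fell (median -0.52). FOSB, an AP-1 subunit, stood at 2.86, 4.48, 4.11 and 3.15 CPM in wild type, 8.71 CPM in the knockout, 69.2 CPM in vector and 16.5 and 14.1 CPM in sgRNA1. It was higher in sgRNA1 than in the knockout although it fell under CRISPRi and rose in the knockout. DUSP1, a MAP kinase phosphatase, and CCN2, a matricellular growth factor, gave the same order, with CRISPRi effects of -0.79 and -1.98 and knockout effects of 1.02 and 0.81. MAFF, a small MAF factor, stood at 17.1, 20.7, 21.4 and 18.5 CPM in wild type and 96.01 CPM in the knockout, and at 86.2 CPM in vector and 87.8 and 96.7 CPM in sgRNA1. The knockout, vector and sgRNA1 libraries held about the same level, and the difference was 2.21 ± 0.19 (log2 ± SE, edgeR adjusted p = 9.89e-07) where vector and wild type differed by 2.15. The vector and the library kind change together between the 2 controls and cannot be told apart. The AP-1 letters TGANTCA stood in 1 of 27 promoters of this list (3.7%), against 5.06% for all genes tested and 7.76% of all promoters.

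Cytokine and NF-kB genes resembled that list in part. Of 19 chemokine and cytokine genes 7 had a positive difference and 0 a negative one, and of 22 NF-kB factors and targets 8 and 0 (of all genes 5% and 4.02%). LIF, an interleukin-6 family cytokine, stood at 47.7, 48.1, 58.2 and 48.3 CPM in wild type, 159.8 CPM in the knockout, 165 CPM in vector and 211 and 208 CPM in sgRNA1. The vector library already stood at the knockout level, as it did for CCL20, a chemokine of lymphocytes and dendritic cells, at 18.8 CPM in the knockout and 19.7 CPM in vector. None of the 5 cytokine genes with like controls had a called difference. Among all genes with like controls 730 of 8715 had, so this is no result about the list. Of the 11 NF-kB genes with like controls 4 had a called difference. TNFAIP2, a TNF-induced gene, was among these 4, with a rise of 1.18 in the knockout and 0.38 under CRISPRi, not called. The NF-kB count was 3 and 5 without sgRNA1 replicates 1 and 2.

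SPP1, the secreted phosphoprotein osteopontin, showed the same pattern among matrix genes, at 2.79, 2.03, 2.32 and 1.67 CPM in wild type, 26.7 CPM in the knockout, 35.8 CPM in vector and 29.6 and 33.5 CPM in sgRNA1. CEBPB, a stress-responsive transcription factor, did so among targets of ATF4, at 25.5, 22.6, 24.96 and 25.9 CPM, 82.1 CPM, 89.3 CPM and 69.6 and 74.1 CPM in the same order. In both genes the knockout, vector and sgRNA1 libraries stood together above wild type. MAFF, SPP1 and CEBPB were the 3 genes whose difference was still called with both libraries labelled knockout in the group.

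Genes of cell adhesion and of chromatin were read last. Of 26 junction genes 7 had a positive and 2 a negative difference, and of 12 integrin genes 3 and 0 (of all genes 5% and 4.02%). With like controls, 4 of 18 junction genes had a positive and 1 a negative difference. None of the 8 integrin genes with like controls had a called difference, which is no result about the list given 730 of 8715 over all such genes. PKP2, the desmosomal protein plakophilin 2, stood at 62.7, 61.2, 59.1 and 65 CPM in wild type, 21.3 CPM in the knockout, 62.6 CPM in vector and 43.9 and 38.8 CPM in sgRNA1. It fell in both models and further in the knockout (-0.94 ± 0.20, log2 ± SE, edgeR adjusted p = 0.00505). ITGB8, an integrin that activates TGF-beta, was raised by 1.19 in the knockout, to 1015 CPM from 413 to 483 CPM, while vector held 223 CPM and sgRNA1 217 and 199.7 CPM. Among 26 subunits of BAF, PBAF and ncBAF complexes, BRD9 had the 1 called difference (-0.81 ± 0.19, log2 ± SE). That share is near the 4.02% of all genes with a negative difference. BRD9 is a bromodomain subunit of ncBAF, and it fell by 0.67 in the knockout with 0.14 under CRISPRi, and the call was lost without either sgRNA1 library. Of 33 Polycomb genes 2 had a positive and 1 a negative difference, shares near the 5% and 4.02% of all genes. EZH2, the H3K27 methyltransferase, had the negative one, at 119.7, 119, 114 and 119.7 CPM in wild type, 52.5 CPM in the knockout, 76.5 CPM in vector and 67.9 and 63.8 CPM in sgRNA1. It fell by 1.17 in the knockout with -0.22 under CRISPRi, and vector stood below every wild-type library. CBX6, a chromodomain protein of Polycomb complexes with like controls, rose by 2.34 in the knockout from 4.65 to 6.59 CPM to 26.9 CPM, against 7.25 CPM in vector and 11.6 and 12.3 CPM in sgRNA1.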

How the data were processed

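The values are raw read counts of RNA given as poly(A)-captured, which the authors deposited in 1 table of 59250 gene symbols with no normalization. Ribosomal and histone shares differ between the library kinds, as given above, and whether all libraries were captured alike was not tested. STAR 2.7.10a and the build hg38 are named in the submitters' processing notes. How reads were counted, with which annotation and whether by strand, is not given in the sources used here, so overlapping, antisense and multi-copy genes are uncertain. Of 14 columns 13 matched a sample by name, and 1 column, named as an ARID1A knockout of NUGC4 with a suffix that no label holds, was used in no step. No column name matched vector replicate 2. The 8 libraries hold 9167761 to 17668394 counts.

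The counts were fitted in R 4.3.3 with edgeR 4.0.16 (quasi-likelihood test, TMM, filterByExpr, Benjamini-Hochberg over 18913 genes, 40337 not passing the filter). One model held 8 libraries with a mean per group and 4 residual degrees of freedom. The knockout and the vector are single libraries, assumed to vary like the replicated groups. The labels do not give separate cultures, so p-values reflect the spread between libraries, which may be technical. The fit was tested on simulated data. Each simulated gene had the same spread in every library, so the simulation could not check the assumption about the single libraries. Standard errors (SE) were derived from the test, as the absolute log2 value over the square root of its F statistic, and are approximate. Floors are 3 counts per library, and counting intervals cover counting error only. Medians, shares and lists carry no test of their own.

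Named genes were, by response class and direction, the 5 protein-coding genes with the largest difference among those with like controls, at least 5 CPM in the highest group and no overlap between libraries, then 3 per direction with unlike controls, and up to 4 members per list with the smallest adjusted p. The text names part of them, chosen after their values were seen. ISG15, PLSCR1, SAMD9, IFI27 and BRD9 lie outside the rule, as do the markers named at 0. Members and lists were chosen with earlier results of these data known. RIGI was matched through an older symbol. Gene positions and promoters are from RefSeq (GRCh38.p14), where 57841 symbols were found. Alternatives were DESeq2 1.42.0 (size factors and Wald test), limma-voom (limma 3.58.1), other filters, other sets of libraries or genes, a minimum absolute log2 of 1, a replicate block, and leaving out each library.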

Additional observations from a re-analysis of the deposited data

Results flagged for a closer look

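In 1706 genes the effects in knockout replicate 1 and in the sgRNA1 libraries differed by a test of the difference itself (edgeR, interaction of the 2 contrasts). The spread between knockout clones or between guides does not enter this test. The transcript of ZNF10 stood at 19.86 CPM of total counts in the library labelled knockout replicate 2, which no comparison uses, against 23.39 CPM in vector, 0 in knockout replicate 1 and at most 0.208 CPM in wild type. The same library was close to vector in ribosomal RNA (0.162% against 0.165% of counts), mitochondrial RNA (8.23% against 8.16%) and ARID1A (140.6 against 139.8 CPM of total counts). It goes against its label.

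Single wild-type libraries stood apart from the other 3 in 8 of the 86 genes checked, where chance flags about 1 in 20 groups. Replicate 3 was the distant one in 6 of them: it was lowest for ANXA13 (3.58 CPM), EZH2 (114.4 CPM), LGR5 (50.6 CPM) and SERPINA4 (2.00 CPM), and highest for IFIT1 (0.632 CPM) and LIF (58.2 CPM). Replicate 1 was low for IFI6 (8.14 CPM) and replicate 2 high for CCN2 (8.70 CPM). The calls of a difference for ANXA13, EZH2, LGR5, SERPINA4 and LIF were kept without replicate 3.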

How the results depend on the processing

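The counts depend most on which libraries enter. The second library labelled knockout goes against its label and stands with vector, so the values with both do not measure the spread between knockouts. Genes with a positive and a negative difference (945 and 761) numbered 517 and 477 at an absolute log2 of at least 1, 3 and 0 with both libraries labelled knockout, 2149 and 1856 with the replicate block, and 466 to 1374 and 349 to 1192 with 1 library left out. Knockout calls (3682 up, 3546 down) were 1450 and 1888 at an absolute log2 of at least 1, with 1870 down with both knockout libraries. CRISPRi calls (874 up, 778 down) were 311 and 332 at that threshold, 0 and 0 with both knockout libraries, 2251 and 1698 with the block, and 421 to 1320 and 327 to 1098 with 1 library left out. Vector against wild type (4441 higher, 3914 lower) gave 1467 and 2385 at that threshold and 1480 and 1034 with both knockout libraries.

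The response classes moved alike. Knockout only (1205) became 713 at that threshold, 3 with both knockout libraries, 2372 with the block and 614 to 1724 with 1 library left out. Both and larger in the knockout (342) became 106, 0, 924 and 141 to 548, opposite (48) became 9, 0, 315 and 20 to 75, and shared (963) became 356, 0, 1730 and 494 to 1297, in the same order. CRISPRi only (83) became 38, 0, 285 and 25 to 144, and 131 with both cell lines in the fit. With both knockout libraries the ARID1A effects were -0.40 and -1.24, neither called, and its difference 0.83; with the block its difference was called at -0.60, and it ran from -0.54 to -0.46 with 1 library left out.

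With both knockout libraries 13 of the other 85 named genes changed the sign of the difference: AGR2 0.51, CDX2 0.48, CLDN18 -0.13, FREM2 0.30, GGT6 0.43, LGR5 0.24, LYZ 0.20, MLPH 0.44, MYBPC1 0.37, NDRG1 0.17, PKP2 0.058, PLK1 0.10 and PPARGC1A 0.82. No other alternative reversed a named gene. DESeq2 size factors, the fit without ribosomal, mitochondrial and histone genes, protein-coding genes alone, both cell lines in the fit and the block changed the call of none of the 85, the DESeq2 Wald test lost IFI27, no filter lost LYZ, and the stricter threshold lost 18. Counts of all differences were 1715 with DESeq2 size factors, 1491 with its Wald test (of 3441 at an unadjusted p under 0.05), 1752 with limma-voom and 2093 with no filter, where the median difference of all genes moved from -0.03 to -0.12.

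The replicate numbers are shared by wild type and sgRNA1 in 2 pairs only, whose deviations correlated at 0.183 and 0.101 over 9823 genes, so the numbers are not taken to pair samples and the block result is given for completeness. The single knockout and vector libraries could not be left out. Depth limits low genes such as IFIT1 (at most 0.632 CPM in wild type), whose difference of 1.51 ± 0.91 (log2 ± SE) was not called.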

Other observations

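Of 16 Notch genes 2 had a positive and 2 a negative difference (of all genes 5% and 4.02%). JAG1, a Notch ligand with like controls, stood at 32.7, 29.1, 30.2 and 30.8 CPM in wild type, 97.4 CPM in the knockout, 36.9 CPM in vector and 53.4 and 53.4 CPM in sgRNA1, and rose in both models and further in the knockout (1.13 ± 0.18, log2 ± SE, edgeR adjusted p = 5.50e-04). NOTCH3, a receptor, fell by 0.92 in the knockout with a CRISPRi effect of 0.46, and LFNG, a glycosyltransferase that tunes Notch receptors, fell by 1.91 and 0.79. Of 11 ERBB receptors and ligands 2 had a positive and 3 a negative difference (of all genes 5% and 4.02%). ERBB2, the receptor HER2, fell by 1.09 in the knockout and 0.41 under CRISPRi, and its call of a difference was lost without wild-type replicate 2 or either sgRNA1 library. LRIG3, a membrane protein related to the ERBB inhibitor LRIG1, fell by 2.62 and 1.17.

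Among 25 targets of p53, 8 had a positive difference and 0 a negative one (of all genes 5% and 4.02%). The positive count was 4 and 3 without sgRNA1 replicates 1 and 2. Of the 12 targets with like controls 2 had a positive difference, and of the 13 others 6 had. CDKN1A, the cyclin-dependent kinase inhibitor p21, stood at 126, 128, 140.3 and 116 CPM in wild type, 312 CPM in the knockout, 305 CPM in vector and 373 and 408 CPM in sgRNA1, so that vector stood at the knockout level. AEN, a nuclease, lies in the shifted window of chromosome 15 and rose by 1.57 in the knockout with 0.02 under CRISPRi. Of 29 glycolysis and hypoxia genes 5 had a positive and 1 a negative difference (of all genes 5% and 4.02%). SLC2A1, the glucose transporter GLUT1, rose by 1.96 and 1.22, PFKP, a phosphofructokinase, by 1.70 and 0.76, and NDRG1, a hypoxia-induced gene, fell by 2.91 and 1.33. The steroid and lipid list had 1 positive and 4 negative differences among 14 (of all genes 5% and 4.02%). ALDH3A1, an aldehyde dehydrogenase of that list, stood at 463, 481, 509 and 431 CPM in wild type and 192 CPM in the knockout, and at 938 CPM in vector and 1283 and 1407 CPM in sgRNA1. It fell in the knockout and rose under CRISPRi.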
